A study of Bos grunniens with 18 samples.

Results

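The genes of oxidative phosphorylation were followed in the blood of yaks across 3 reproductive stages. The members were the rows of the deposited gene table whose KEGG annotation lists this pathway and that held 10 or more counts in at least 6 of the 18 libraries. Of the 20607 genes in the table, 164 list the pathway and 132 met the count minimum. By the KEGG ortholog of each row, 41 belonged to complex I, 7 to complex II, 13 to complex III, 15 to complex IV and 21 to complex V, which makes 97 genes of the respiratory chain and ATP synthase. A further 25 belonged to the vacuolar ATPase (V-ATPase), 4 to the pyrophosphatases and 4 to the assembly of complex IV. The other 2 were ATP4B, a subunit of the gastric proton pump, and SERAC1. Of the 132 members, 62 carried the symbol of a subunit, 59 had only an identifier, and 11 carried the symbol of another gene. A row without a subunit symbol can be a copy of a subunit gene or a merged locus, and reads from near-identical copies could have been split between rows. No row of the table lies on the mitochondrial chromosome, so the genes encoded there have no row of their own. A row on a nuclear chromosome that is annotated as cytochrome b is counted in complex III and described below.

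Whole blood of adult female yaks aged 4 to 8 years was collected in anestrus (Y-A), in estrus (Y-E) and in pregnancy (Y-P), with 6 libraries for each stage. The study followed 6 cows; estrus was synchronised with a progesterone pessary, prostaglandin and GnRH and followed by artificial insemination, so Y-E and Y-P come after hormone treatment. Every stage was sampled as EDTA blood lysed in TRIzol LS, without sorting of cells. The labels do not say which replicate number belongs to which cow. Total counts per library ranged from 30247267 to 48401076, and members took 1.08% to 1.71% of them. Hemoglobin genes made up 3.10% to 16.7% of all counts in Y-A, 0.0899% to 8.36% in Y-E and 0.0272% to 0.376% in Y-P. The highest Y-E share was that of Y-E6, and the highest of all that of Y-A6. The letters Y-A, Y-E and Y-P followed by a number name a stage and its replicate.

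Oxidative phosphorylation is carried out in the inner mitochondrial membrane. Complexes I to IV pass electrons from NADH and succinate to oxygen, all but complex II pump protons, and complex V, the ATP synthase, uses the returning protons to make ATP. The V-ATPase runs in the opposite sense: it spends ATP to acidify lysosomes and other vesicles, and KEGG lists it on the same pathway map. In blood, lymphocytes, monocytes and platelets carry mitochondria, neutrophils have few, and red cells lose theirs as they mature. In whole blood, fewer cells of a type and less RNA per cell cannot be told apart.

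Levels between genes were compared as FPKM, which is scaled by gene length, averaged over the 18 libraries. The median member stood at 16.9 FPKM in complex I, 45.3 in complex II, 23.7 in complex III, 49.6 in complex IV, 36.8 in complex V and 29.1 in the V-ATPase. In complex I the row ENSBGRG00000003880 held 85.4 FPKM. In complex II, SDHB with 57.2 FPKM and SDHA with 52.3 FPKM, the iron-sulfur and flavoprotein subunits, lay close to SDHC with 49.5 FPKM and SDHD with 45.3 FPKM, the membrane anchors. The other 3 rows of complex II, which carry the symbols RPAP3, ZC2HC1A and ZC2HC1B, held 13.0, 1.88 and 0.176 FPKM. In complex IV, the row annotated as subunit 4 (ENSBGRG00000013514) reached 238 FPKM and COX8A reached 192 FPKM. In complex V, the row of the epsilon subunit (ENSBGRG00000024809) reached 298 FPKM and ATP5F1A, the alpha subunit of the F1 ring, 216 FPKM.

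**Figure D1:**
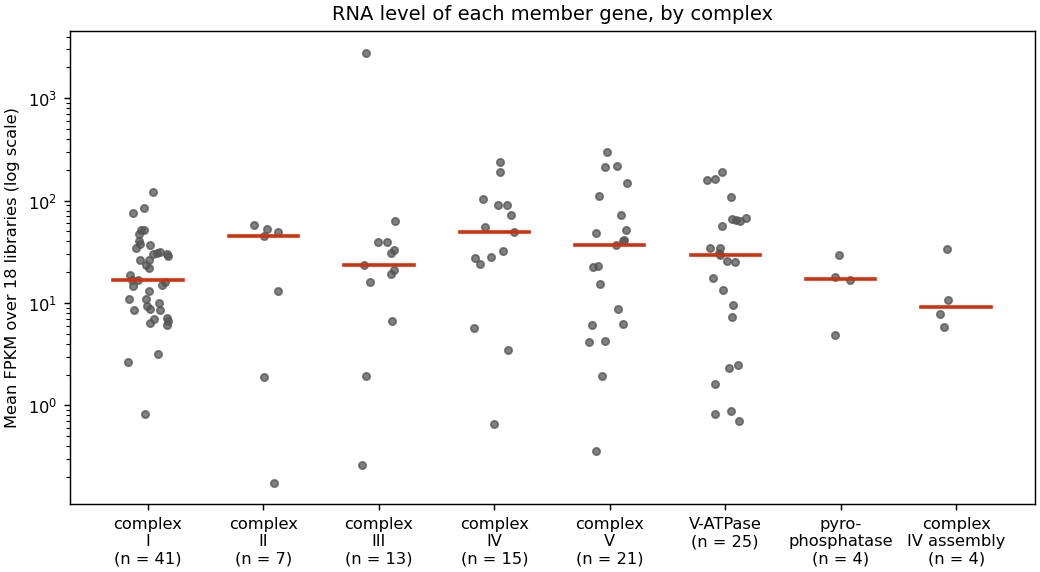
Mean FPKM over the 18 libraries of each member gene (grey points, log axis) by complex, with the median of the complex as a red line; ATP4B and SERAC1 are not drawn. Medians lie between 9.24 FPKM for complex IV assembly and 49.6 FPKM for complex IV, and 1 row of complex III stands at 2778 FPKM.

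A single row held most of the counts. ENSBGRG00000025837, on chromosome 27 from 17884676 to 17887546 of the table's coordinates, is annotated as cytochrome b, the complex III subunit whose gene is mitochondrial, and also to NADH dehydrogenase activity. It averaged 2778 FPKM and took 41.3% to 62.5% of all member counts, depending on the library. Its level in CPM, the counts scaled to library size after TMM normalisation, had a median of 9156 CPM in Y-A (lowest 6399, highest 10860), of 8338 CPM in Y-E (lowest 6463, highest 10947) and of 6560 CPM in Y-P (lowest 5083, highest 7873). The groups overlapped, and no comparison passed the test (log2 fold change of Y-P against Y-A −0.41, adjusted p = 0.11 in edgeR's quasi-likelihood test). Whether this row holds reads of the mitochondrial gene was not tested. Sums over members would mostly follow this row, so medians over genes are given in what follows.

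Several subunits come in more than 1 form, and blood used mainly 1 of each pair. In the V-ATPase, ATP6V0D1 averaged 62.8 FPKM against 0.885 FPKM for ATP6V0D2, the form known from osteoclasts. ATP6V1B2 averaged 25.5 FPKM against 0.0415 FPKM for ATP6V1B1, the renal form, which missed the count minimum. ATP6V1E1 averaged 68.3 FPKM against 1.63 FPKM for ATP6V1E2, and ATP6V1G1 averaged 161 FPKM against 0.0363 FPKM for ATP6V1G2, the neuronal form. The row of subunit e1 averaged 191 FPKM against 2.47 FPKM for ATP6V0E2. In each of these 5 pairs the first was higher in 18 of 18 libraries. The membrane subunit a was less one-sided: ATP6V0A1 averaged 29.1 FPKM, ATP6V0A2 24.9 FPKM and ATP6V0A4 7.36 FPKM, and ATP6V0A1 exceeded ATP6V0A2 in 12 of 18 libraries. A further row of this subunit, the pseudogene row ENSBGRG00000011501, was not compared with them, so the highest form of subunit a is not given. In complex IV, COX7A1, the heart and muscle form of subunit 7A, averaged 5.69 FPKM against 55.0 FPKM for the highest other row of that subunit. COX6A2, the muscle form of subunit 6A, averaged 0.000235 FPKM and missed the minimum. Of the pyrophosphatases, cytosolic PPA1 averaged 29.6 FPKM and mitochondrial PPA2 17.8 FPKM, with PPA1 higher in 18 of 18 libraries.

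The level of the respiratory chain varied more between libraries of a stage than between stages. Each gene's log2 CPM was set against its mean over the 18 libraries, and the median of these deviations was taken over the genes of a complex. For complex IV this median lay between 0.18 and 0.44 in Y-A1 to Y-A5 but at −0.79 in Y-A6. In Y-E it lay between 0.06 and 0.26 in replicates 1 to 5 and at −0.996 in Y-E6. In Y-P it stood at 1.08 in Y-P2 and 1.06 in Y-P3, and between −0.98 and −0.52 in the other 4 libraries. In complex I the span was smaller, from −0.57 in Y-A6 to 0.70 in Y-P3, with the same libraries low except Y-P5, which stood at 0.06. Complex III ran from −0.73 in Y-P1 to 0.58 in Y-P2, and complex V from −0.64 in Y-P1 to 0.56 in Y-P2.

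Complex II did not follow these libraries, with 0.06 in Y-A6, −0.05 in Y-E6 and a span from −0.33 in Y-E3 to 0.50 in Y-P3. The V-ATPase spanned −0.40 in Y-P1 to 0.25 in Y-E2. The median over all 14508 genes tested stayed between −0.02 and 0.03. Replicate 6 was thus low in complexes I, III, IV and V at every stage, and the stages overlapped in every complex. Of the 97 respiratory genes, 65 had their lowest Y-A value in Y-A6, against 20.3% of all genes tested, and 61 had their lowest Y-E value in Y-E6, against 22.8%. In Y-P, 48 were lowest in Y-P1, against 20.1% of all genes, and 50 were highest in Y-P3, against 16.6%.

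**Figure D2:**
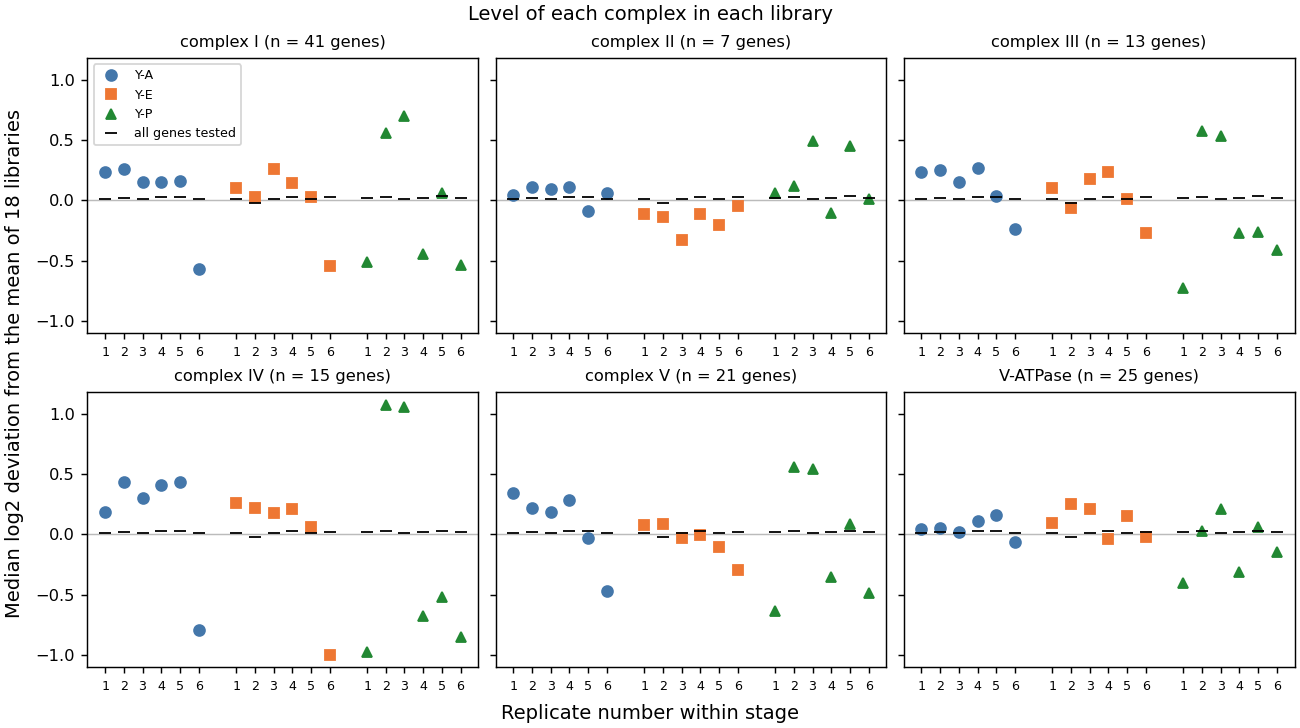
Median log2 deviation of the genes of each complex from their mean over 18 libraries, by stage (colour and marker) and replicate number (x axis); black dashes give the median of all genes tested. For complex IV, Y-A6, Y-E6, Y-P1, Y-P4, Y-P5 and Y-P6 lie between −0.996 and −0.52 and Y-P2 and Y-P3 above 1, while complex II and the V-ATPase spread far less.

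The span depended on gene length. Lengths were taken from the ratio of counts to FPKM, and the respiratory genes were shorter than most, with a median of 1233 bases against 2406 bases for all genes tested and 30.9% against 5.92% of at most 500 bases. For the 16 respiratory genes of at most 300 bases, the median deviation was −1.08 in Y-A6, −1.25 in Y-E6, −1.05 in Y-P1, −1.04 in Y-P6, −0.75 in Y-P4 and −0.62 in Y-P5, and 1.12 in Y-P2 and 1.15 in Y-P3. For the 25 genes between 2000 and 4000 bases it lay between −0.23 and 0.31. Complex II has no short row: its lengths ran from 1449 bases for SDHB to 3383 bases for RPAP3. Genes that are no members showed the same libraries at the same ends in the class between 300 and 500 bases, with −0.35 in Y-A6, −0.29 in Y-E6, −0.39 in Y-P1 and 0.49 in Y-P3, where the 14 respiratory genes of that length had −0.80, −0.77, −0.75 and 1.12. In the class of at most 300 bases the 392 other genes spanned −0.28 in Y-P5 to 0.24 in Y-A5, with 0.04 in Y-P1 and 0.06 in Y-P3, so the libraries at the ends were not those of the respiratory genes. The difference in span between members and other genes was not tested. Neither the labels nor the table give a batch, RNA quality or insert size for these libraries, and their part in the pattern was not tested.

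**Figure D3:**
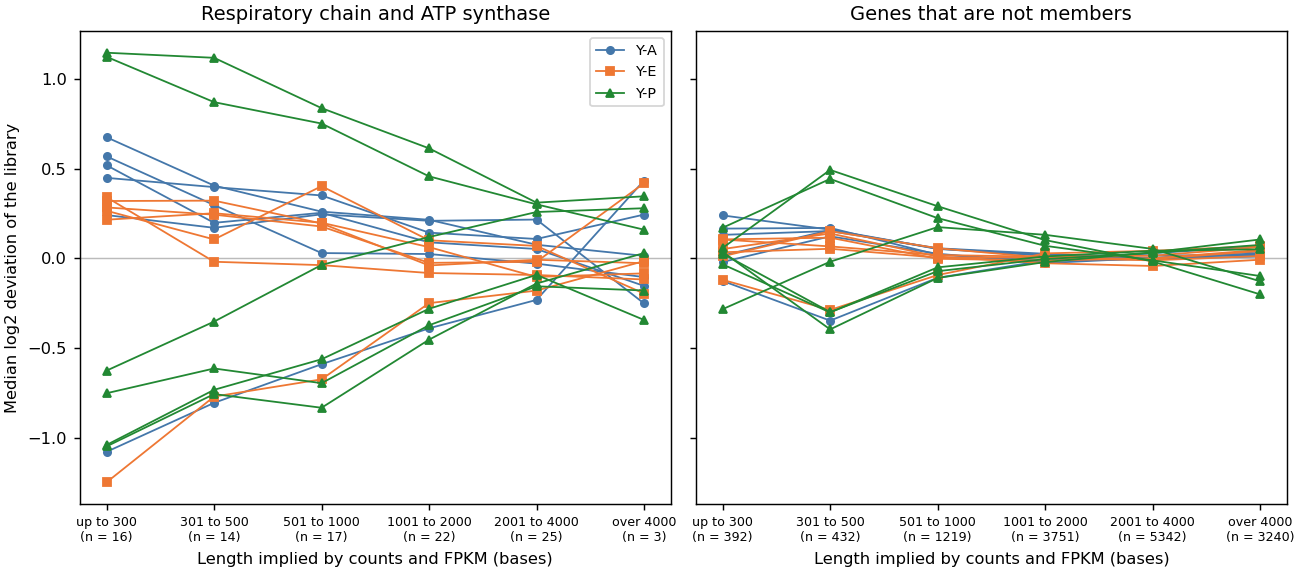
Median log2 deviation of each library (1 line per library, coloured by stage) over genes in 6 classes of length, for the 97 respiratory genes (left) and for genes that are no members (right). The lines of the respiratory genes fan out toward short genes, to −1.25 and 1.15, and those of other genes spread most between 300 and 500 bases, from −0.39 to 0.49.

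This spread bears on every comparison of stages. The stage accounted for a median of 8.39% of the variance of log2 CPM over the respiratory genes, against 18.03% over all genes tested, and the median within-stage SD was 0.52 on the log2 scale against 0.36. In complex IV the stage accounted for 5.42% with an SD of 0.77, in complex II for 19.4% with an SD of 0.24, and in the V-ATPase for 19.1% with an SD of 0.35. The stage comparisons were made with edgeR's quasi-likelihood test on the counts over all 14508 genes tested, with Benjamini-Hochberg adjustment, and genes with an adjusted p under 0.05 are referred to as called. When a 2-fold change was also required, no member was called in Y-E vs. Y-A or Y-P vs. Y-E and 2 were in Y-P vs. Y-A, against 0.0138%, 2.67% and 1.43% of all genes.

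Between estrus and anestrus no respiratory gene and no V-ATPase gene was called by edgeR. Over all genes 3 were called, 0.0207% of those tested. At an unadjusted p under 0.05 stood 3 respiratory genes, all lower in Y-E, and 3 V-ATPase genes, against 6.20% of all genes, and DESeq2 called 1 gene of each group. The median log2 fold change was −0.09 over the 97 respiratory genes, 0.03 over the V-ATPase and −0.01 over all genes. Values were below 0 for 75.3% of the respiratory genes, against 51.7% of all genes. They were also below 0 for all 7 rows of complex II (median −0.16), of which 3 carry the symbols of other genes. But the spread of the libraries given above was larger than the medians of the 97 respiratory genes and the V-ATPase. In complex II the library deviations ran from −0.09 to 0.11 in Y-A and from −0.33 to −0.05 in Y-E. Only Y-A5, with −0.09, lay inside the Y-E range.

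Between pregnancy and anestrus, 2 respiratory genes fell and none rose, against 5.83% called over all genes (2.22% higher and 3.61% lower), and no V-ATPase gene was called. The 2 were both annotated as the epsilon subunit of the F1 part of ATP synthase, the small subunit of the central stalk. At an unadjusted p under 0.05 stood 8 respiratory genes and 2 V-ATPase genes, against 22.7% of all genes. Medians were −0.01 over the respiratory genes, with −0.02 in complex I, 0.23 in complex II, 0.05 in complex III, −0.14 in complex IV and −0.06 in complex V. The V-ATPase stood at −0.11 and all genes at 0.03. Under scaling by library size alone the median of all genes moved to 0.19, that of the respiratory genes to 0.14 and that of the V-ATPase to 0.06. The split of all calls moved from 322 higher and 524 lower to 1075 higher and 258 lower, and that of the respiratory calls to 4 higher and 2 lower. With limma on log2(FPKM + 1) 10 respiratory genes were higher and 2 lower. Relative to all genes, both groups stayed slightly lower under either scaling.

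Between pregnancy and estrus, 4 respiratory genes rose and 1 fell, against 5.77% called higher and 8.68% called lower over all genes. The V-ATPase had 1 gene higher and 2 lower of 25. The respiratory share of 5 in 97 thus lay below the 14.4% of all genes called in this comparison. At an unadjusted p under 0.05 stood 11 respiratory and 8 V-ATPase genes, against 29.3% of all genes. Medians were 0.12 over the respiratory genes, −0.26 over the V-ATPase and 0.04 over all genes, and 0.25, −0.11 and 0.18 under scaling by library size alone. Values were above 0 for all 7 rows of complex II (median 0.25), of which 3 carry the symbols of other genes, and for 7789 of the 14508 genes tested. With scaling by library size alone, 11 respiratory genes were called higher and none lower, and the V-ATPase had 2 higher and 1 lower, as with limma. The calls over all genes were then 1795 higher and 758 lower in place of 837 and 1259.

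**Figure D4:**
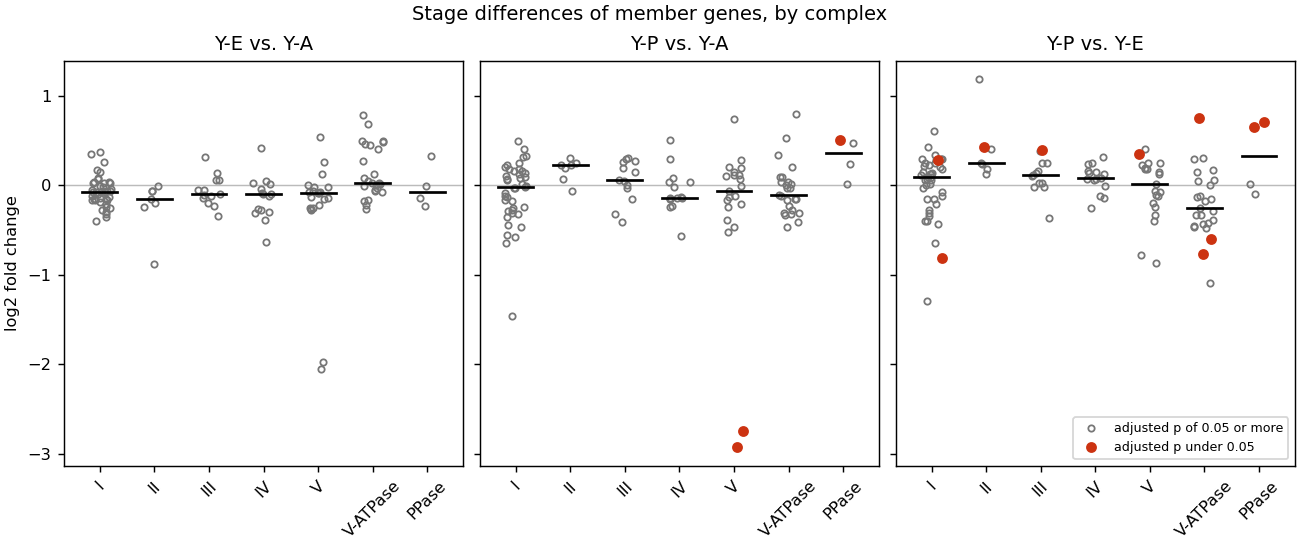
Log2 fold change of each member gene in the 3 comparisons, by complex (I to V), V-ATPase and pyrophosphatases (PPase), with filled red points for an adjusted p under 0.05 in edgeR's test and black lines for medians. Both called genes of complex V in Y-P vs. Y-A lie below −2.7, and in Y-P vs. Y-E PPA1, PPA2 and ATP6V0A4 lie between 0.65 and 0.75.

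The epsilon subunit gave the largest difference among the members. The row ENSBGRG00000024809, on chromosome 12 from 50769652 to 50771507, had a median of 115 CPM in Y-A (lowest 63.1, highest 184), of 28.5 CPM in Y-E (lowest 20.4, highest 48.1) and of 7.62 CPM in Y-P (lowest 5.41, highest 46.9). Every Y-A library lay above all Y-E and all Y-P libraries, while Y-P2 with 46.9 CPM and Y-P3 with 34.6 CPM lay inside the Y-E range and the other 4 Y-P libraries below it. Non-overlap of this kind was found for 3.56% of all genes in Y-P vs. Y-A and for 0.303% in Y-E vs. Y-A.

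Against Y-A the log2 fold change of this row was −2.75 ± 0.52 (SE, n = 6 libraries per stage) in Y-P, with an adjusted p of 0.0067 in edgeR, and it was called in all 18 fits that left out 1 library. In Y-E it was −1.97 ± 0.50, with an adjusted p of 0.32 in edgeR and of 0.036 in DESeq2. Between Y-P and Y-E it was −0.78 ± 0.49 (adjusted p = 0.32, edgeR). The row is only 186 bases long. A covariate, added after seeing the data, held each library's level of genes of at most 500 bases that do not list the pathway. With it the edgeR values were −2.90 (adjusted p = 0.00016) for Y-P against Y-A and −1.16 (adjusted p = 0.018) between Y-P and Y-E. Genes of at most 300 bases outside the members had other libraries at their ends than the respiratory genes. The covariate therefore cannot settle the part of length at 186 bases. The second row, ENSBGRG00000000690 on chromosome 3 from 131326053 to 131326208, held 0.576% to 2.96% of the counts of the first and had at most 3 counts in 3 Y-P libraries. Its log2 fold change was −2.93 ± 0.77 in Y-P vs. Y-A (adjusted p = 0.033, edgeR). It was called in 11 of 18 fits that left out 1 library, and the counting could have split reads between the 2 rows.

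Red cell genes moved in the same comparison. Of 9 erythroid markers, 6 fell in Y-P vs. Y-A, against 3.61% of all genes called lower. Among the 6 were ALAS2, the first enzyme of erythroid heme synthesis, with a log2 fold change of −5.33, and HBM, a hemoglobin chain, with −7.48. The summed level of the 9 ranged from 644 to 12062 CPM in Y-A, from 200 to 5215 CPM in Y-E and from 137 to 233.6 CPM in Y-P, and only RHAG had a median of 3 counts or fewer. ATP5IF1, the inhibitor of ATP synthase, which is no member, ranged from 758 to 2591 CPM in Y-A, 75.9 to 491 CPM in Y-E and 20.2 to 134 CPM in Y-P, with a log2 fold change of −4.78 ± 0.60 in Y-P vs. Y-A (adjusted p = 0.00069, edgeR). Y-A6, with the highest hemoglobin share, had the lowest epsilon level of Y-A, and Y-E6 with 30.8 CPM lay inside the range of the other Y-E libraries. The epsilon row is short, and respiratory genes of at most 300 bases were low in both libraries (median deviations of −1.08 and −1.25). The epsilon levels of these 2 libraries therefore cannot be read for red cell RNA alone. The part of red cell RNA in the epsilon difference was not tested. None of the other 19 rows of complex V was called in Y-P vs. Y-A, and their log2 fold changes ran from −0.52 to 0.74.

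**Figure D5:**
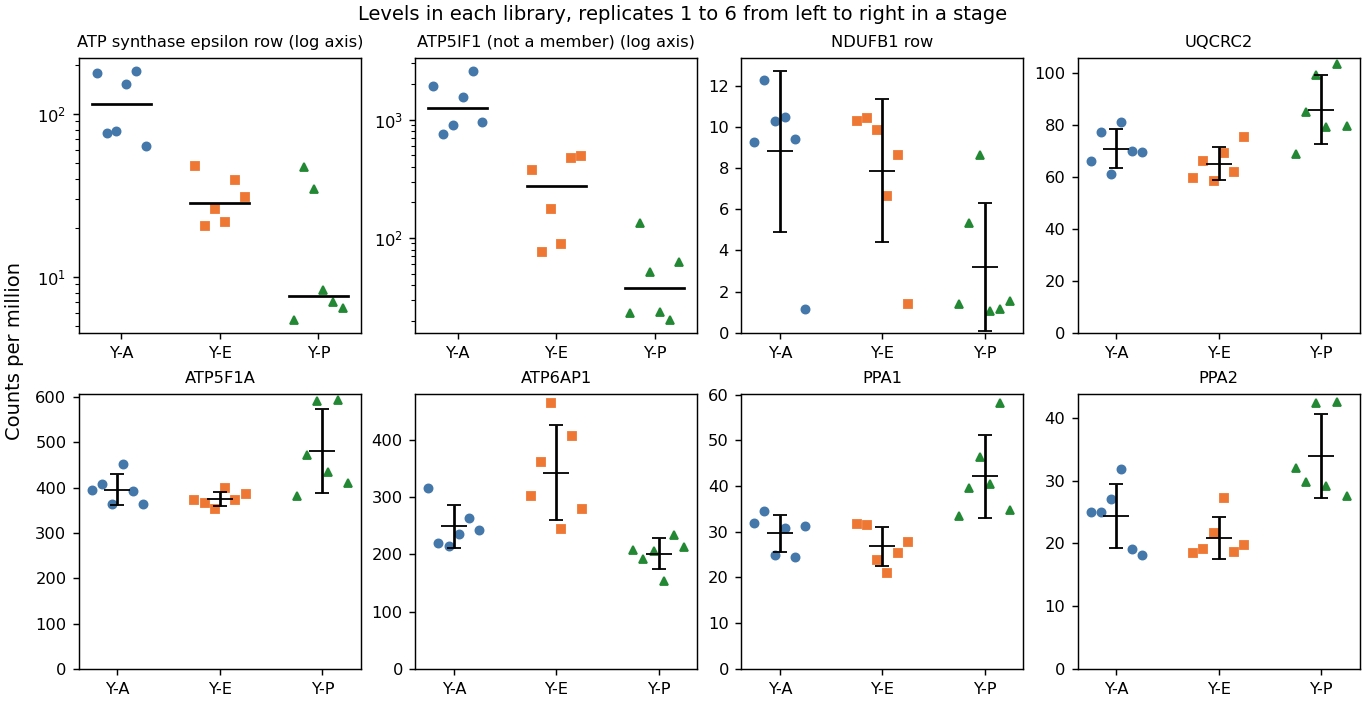
CPM in each library for 7 member rows and ATP5IF1, with points ordered by replicate number within each stage. Lines are medians on the 2 log axes and mean ± SD (n = 6) on the 6 linear axes; epsilon and ATP5IF1 are highest in Y-A, PPA1 and PPA2 highest in Y-P, ATP6AP1 highest in Y-E, and the NDUFB1 row splits within each stage.

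Within complex V only ATP5F1A was called between pregnancy and estrus. ATP5F1A had a median of 393 CPM in Y-A (lowest 363, highest 453), of 373 CPM in Y-E (lowest 354, highest 399) and of 453 CPM in Y-P (lowest 382, highest 594). The Y-P values of Y-P3 and Y-P5 lay far above the rest, and Y-P1 lay inside the Y-E range. ATP5F1A rose in Y-P vs. Y-E by 0.36 ± 0.11 on the log2 scale (adjusted p = 0.036, edgeR), and was called in 10 of 18 fits that left out 1 library. ATP5F1B, the beta subunit with the catalytic sites, had 0.23 (adjusted p = 0.19), and ATP5PO, a subunit of the peripheral stalk, 0.41 (adjusted p = 0.11).

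In complex I, AKIRIN1 was called between pregnancy and estrus. AKIRIN1 is named for a nuclear protein but annotated to a complex I ortholog. It ranged from 66.3 to 83.4 CPM in Y-E and from 74.0 to 97.8 CPM in Y-P and rose by 0.28 ± 0.09 on the log2 scale (adjusted p = 0.037, edgeR; called in 8 of 18 fits that left out 1 library). NDUFS1, a core subunit, stood at 0.06 in that comparison (adjusted p = 0.78), and NDUFV1, the NADH-binding subunit, at 0.26 (adjusted p = 0.30).

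The row of NDUFB1, an accessory subunit (ENSBGRG00000019621, chromosome 17 from 61089448 to 61096740), had the lowest log2 fold change of complex I in pregnancy, and it was singled out after its values were seen. It held 9.27 to 12.3 CPM in Y-A1 to Y-A5 and 1.17 CPM in Y-A6, and 6.65 to 10.4 CPM in Y-E1 to Y-E5 and 1.41 CPM in Y-E6. In Y-P it held 5.32 CPM in Y-P2, 8.63 CPM in Y-P3 and 1.05 to 1.57 CPM in the other 4. The low values are those of the libraries in which short respiratory genes were low, at every stage. Its log2 fold change was −1.46 ± 0.58 in Y-P vs. Y-A (adjusted p = 0.14, edgeR) and −1.30 ± 0.58 in Y-P vs. Y-E (adjusted p = 0.14, edgeR).

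In complex III, UQCRC2, a core protein, ranged from 58.6 to 75.6 CPM in Y-E (median 64.1) and from 68.8 to 104 CPM in Y-P (median 82.3), with Y-P1 alone inside the Y-E range. It rose by 0.40 ± 0.11 on the log2 scale (adjusted p = 0.020, edgeR), called in 17 of 18 fits that left out 1 library, with an adjusted p of 0.051 without Y-E1. Its locus overlaps PDZD9 on the other strand, which averaged 0.262 FPKM. UQCRC1, its partner, had 0.12 (adjusted p = 0.71). In complex II, SDHD, outside the naming rule by its rank, ranged from 55.1 to 83.8 CPM in Y-E and from 67.0 to 115 CPM in Y-P and rose by 0.43 ± 0.14 (adjusted p = 0.045, edgeR). It was called in 6 of 18 such fits, and SDHA, SDHB and SDHC had 0.24, 0.13 and 0.25 with adjusted p of 0.17 or more. Complex IV and its 4 assembly rows gave no call in any comparison, with the highest SD of the complexes.

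The pyrophosphatases, which split the pyrophosphate released in many syntheses, had 2 of 4 rows called higher in Y-P vs. Y-E and 1 in Y-P vs. Y-A. Over all genes 5.77% and 2.22% were called higher in these comparisons. PPA1, on chromosome 27 from 26147320 to 26188069, had a median of 30.9 CPM in Y-A (lowest 24.4, highest 34.6), of 26.6 CPM in Y-E (lowest 20.9, highest 31.8) and of 40.0 CPM in Y-P (lowest 33.5, highest 58.2). Every Y-P library lay above every Y-E library. It rose by 0.65 ± 0.15 against Y-E (adjusted p = 0.0062, edgeR), in all 18 fits that left out 1 library, and by 0.51 ± 0.15 against Y-A (adjusted p = 0.044, edgeR), in 6 of them. PPA2, on chromosome 6 from 107207894 to 107312184, had a median of 25.01 CPM in Y-A (lowest 18.2, highest 31.8), of 19.4 CPM in Y-E (lowest 18.5, highest 27.2) and of 30.9 CPM in Y-P (lowest 27.6, highest 42.5). Again every Y-P library lay above every Y-E library, which held for 6.03% of all genes in either direction. PPA2 rose by 0.71 ± 0.16 against Y-E (adjusted p = 0.0059, edgeR), in all 18 such fits, and had 0.48 ± 0.16 against Y-A (adjusted p = 0.072). HDHD2 and LHPP, annotated to another phosphatase, had log2 fold changes between −0.10 and 0.33 in the 3 comparisons and were not called.

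In the V-ATPase the accessory protein ATP6AP1 was lower in pregnancy than in estrus. ATP6AP1, which helps to assemble the pump (chromosome X from 40067175 to 40077604), had a median of 239 CPM in Y-A (lowest 214, highest 315), of 331 CPM in Y-E (lowest 243, highest 464) and of 206 CPM in Y-P (lowest 153, highest 233.9). Every Y-P library lay below every Y-E library, and against Y-A only Y-P5, with 233.9 CPM, lay inside the Y-A range (log2 fold change −0.31, adjusted p = 0.22, edgeR). It fell by 0.77 ± 0.15 on the log2 scale in Y-P vs. Y-E (adjusted p = 0.0026, edgeR), in all 18 fits that left out 1 library.

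A pseudogene row of the membrane subunit a (ENSBGRG00000011501) ranged from 103 to 162 CPM in Y-E and from 72.0 to 113 CPM in Y-P and fell by 0.60 ± 0.19 (adjusted p = 0.038, edgeR; called in 10 of 18 such fits). ATP6V0A4, named for its isoform pair and not by its rank, ranged from 13.2 to 20.5 CPM in Y-E and from 19.2 to 36.3 CPM in Y-P. It rose by 0.75 ± 0.24 (adjusted p = 0.040, edgeR) and was also called in 10 of 18 fits. ATP6V0A1 had −0.39 (adjusted p = 0.060) and ATP6V0A2 0.31 (adjusted p = 0.096) in that comparison, so the forms of subunit a differed in sign. Of the other subunits, the row of subunit e1 had −0.41 and ATP6V0B, of the proton-carrying ring, −0.45 (adjusted p = 0.069), while ATP6V1A and ATP6V1B2, the catalytic head, had −0.13 and −0.12.

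Markers of white cells moved between the same stages. Of 7 neutrophil markers 5 fell in Y-P vs. Y-E, and their summed level ranged from 5926 to 13775 CPM in Y-E and from 3575 to 6938 CPM in Y-P, against 4565 to 10395 CPM in Y-A. Of 8 monocyte markers 4 fell (C1QA, C1QB, C1QC and CD68), while CD14, CD163, CSF1R and FCGR1A were not called. Sums over the 8 were 536 to 1080 CPM in Y-E, 373 to 777 CPM in Y-P and 652 to 961 CPM in Y-A. Of 6 T cell markers 4 rose, with sums of 766 to 1049 CPM in Y-E, 948 to 1674 CPM in Y-P and 804 to 995 CPM in Y-A. Over all genes 8.68% were called lower and 5.77% higher in Y-P vs. Y-E. None of 7 B cell markers was called in any comparison. Of 3 platelet markers tested TUBB1 fell by 1.25 on the log2 scale in Y-P vs. Y-E. Against Y-A, 3 T cell markers rose in Y-P, and 3 monocyte markers, all C1q chains, and TUBB1 (by 1.21) fell. In that comparison 2.22% of all genes were called higher and 3.61% lower. Of the 42 markers in these 5 lists, 32 are in the table, GP1BB had a median of 3 counts or fewer, and the part of cell makeup in the differences of members was not tested.

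Related genes of energy metabolism were counted from lists of the same scope. Of 19 genes of the citric acid cycle and pyruvate dehydrogenase, 7 rose in Y-P vs. Y-E and none fell, against 5.77% and 8.68% of all genes. They were MDH1, FH, IDH2, IDH3B, DLAT, PDHA1 and PDHB, with log2 fold changes from 0.35 to 0.61, and the median of the list was 0.34. The highest value was that of MDH1, whose malate dehydrogenase is cytosolic, as is the aconitase of ACO1 in the list. In the other comparisons none was called by edgeR, with medians of 0.23 in Y-P vs. Y-A and −0.08 in Y-E vs. Y-A, where 7 and 0 had an unadjusted p under 0.05. Of 13 assembly factors of complex I, ACAD9 rose by 0.63 in both comparisons with Y-P, and FOXRED1 fell by 0.92 against Y-E. Of 23 assembly factors of complexes II to V, ATPAF1, a chaperone of the F1 part, rose by 0.46 against Y-E. Of 10 electron carriers and transporters tested, ETFDH and ETFA, which feed electrons from fat oxidation, rose by 0.63 and 0.55 against Y-E, while UCP2, named for uncoupling, fell by 1.16 and ATP5IF1 fell by 2.41. Of 13 regulators of mitochondrial genes POLG, the mitochondrial DNA polymerase, rose by 0.39 against Y-E, and PPARGC1A had a median of 3 counts or fewer. Of 8 assembly and regulatory genes of the V-ATPase, DMXL2 fell by 1.13 against Y-A and 1.33 against Y-E.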

How the data were processed

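Blood RNA was sequenced in 18 libraries, 6 for each stage. Per the labels and the methods of the study, the authors trimmed reads with cutadapt 1.9, aligned them with HISAT2 2.2.1 to the domestic yak genome and computed FPKM with StringTie 2.1.6. The deposited table gives a raw count and an FPKM value, made by the authors, for each gene and library; how its count columns were made is not given in the sources used here. FPKM is scaled by length and library and was used for levels between genes. No column of another sample is in the table.

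The counts were tested with edgeR 4.0.16 in R 4.3.3 (filterByExpr with stage, TMM, quasi-likelihood test, all 18 libraries in 1 fit, Benjamini-Hochberg adjustment over 14508 genes), with DESeq2 1.42.0 and limma 3.58.1 as alternatives, and the fit was tested on simulated counts. CPM uses TMM library sizes, and a pseudocount of 0.1 CPM was added before log2 deviations. Replicate libraries all differed from each other. The p-values measure the spread between libraries, and floors of 3 counts cover counting error only. Hemoglobin genes were the 6 rows annotated to the hemoglobin complex.

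Named genes were, in each comparison, up to 5 called members per direction with the smallest adjusted p and the same sign in every fit leaving out 1 library, the 2 members per complex with the highest FPKM, and the isoform pairs. Further genes were named after their values were seen, and 1 gene that the rule names is not reported here. The members and lists were chosen with earlier results of these data known.

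The study followed the same cows, but no label ties a replicate number to a cow. Deviations of same-numbered libraries from their stage means correlated at 0.110 to 0.515 in Y-E vs. Y-A, each library correlating best with its own number, so the numbers were taken to pair these stages. With the replicate block no respiratory or V-ATPase gene was called there. The calls over all genes went from 3, all lower, to 14 (4 higher, 10 lower). The Y-E vs. Y-A values given above come from fits without the block.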

Additional observations from a re-analysis of the deposited data

Results flagged for a closer look

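In 60 groups of 6 libraries checked (complexes and named members in each stage), 9 had a highest or lowest library set apart from the rest by more than Dixon's limit at 95%, which chance passes in about 1 of 20 groups. The median log2 deviation of complex I was lowest in Y-A6 with −0.57 and in Y-E6 with −0.55, and that of complex IV in Y-A6 with −0.79 and in Y-E6 with −0.996. The NDUFB1 row ENSBGRG00000019621 was lowest in Y-A6 with 1.17 CPM. These 5 values belong to the libraries in which short respiratory genes were low, and the cause was not tested. The median of complex II was lowest in Y-A5 with −0.0859. The second epsilon row, ENSBGRG00000000690, was highest in Y-P2 with 1.31 CPM. PPA2 was highest in Y-E4 with 27.2 CPM, and SDHD in Y-E6 with 83.8 CPM.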

How the results depend on the processing

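The alternatives were run for 23 log2 fold changes, of the genes called and a few others, and not for the rest of the named genes. None of the 23 changed sign, 571 of their values kept their side of the threshold, 20 came to pass it and 98 no longer passed it. In Y-E vs. Y-A, DESeq2 called 1 respiratory and 1 V-ATPase gene. In Y-P vs. Y-A the respiratory calls went from 2 to 6 with library size only (4 higher, 2 lower), 12 and 10 with limma on log2(FPKM + 1) and log2(FPKM + 0.1) (10 and 8 higher), and 6 with the short-gene covariate (2 higher, 4 lower), and limma called 1 V-ATPase gene with either pseudocount. In Y-P vs. Y-E the respiratory calls went from 5 to 2 without the low-count filter, 11 with library size only, 16 with limma and either pseudocount, 11 with the short-gene covariate (6 higher, 5 lower) and 0 when a 2-fold change was also required. The V-ATPase calls went from 3 to 1 without the filter, 5 with DESeq2, 5 with the covariate and 0 with the 2-fold limit, and with library size only or limma 2 were higher and 1 lower in place of 1 and 2. The cause of these shifts was not tested.

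Leaving out 1 library gave 1 to 2 respiratory calls in Y-P vs. Y-A (1 without Y-A1, Y-A4, Y-A5, Y-P4, Y-P5 or Y-P6). In Y-P vs. Y-E it gave 0 to 7, with 0 without Y-E1, 1 without Y-E2, Y-E3 or Y-E5, 2 without Y-A6 or Y-P5, 3 without Y-A1, Y-P3 or Y-P6 and 7 (5 higher, 2 lower) without Y-E6. For the V-ATPase it gave 0 to 1 (1 without Y-P3) and 1 to 5 (1 without Y-E2, Y-E5 or Y-P4, 5 without Y-E4). The respiratory medians ran from −0.20 to 0.11 in Y-P vs. Y-A and from −0.07 to 0.21 in Y-P vs. Y-E, so their sign rests on single libraries. Same-numbered libraries correlated at −0.0492 to 0.369 in Y-P vs. Y-A and at −0.0544 to 0.400 in Y-P vs. Y-E. In each of these comparisons 4 of 6 correlated best with their own number. Pairing of Y-P with the other stages by number is thus neither shown nor excluded. With the replicate block the V-ATPase calls in Y-P vs. Y-E went to 5 (2 higher, 3 lower). The respiratory calls there were 5 in number but 2 higher and 3 lower in place of 4 and 1, and in Y-P vs. Y-A they were 3, all lower. Under the block, PPA1 in Y-P vs. Y-A, ATP5F1A and SDHD no longer passed (adjusted p = 0.054, 0.052 and 0.058, edgeR), while PPA2 and the NDUFB1 row in Y-P vs. Y-A did (0.047 and 0.046, edgeR). The covariate and the fits without several libraries were chosen after seeing the data.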
